A study of Mus musculus with 5 samples.

Results

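The macroglobulins and the inter-alpha-trypsin inhibitors are protease inhibitors that the liver secretes into plasma. Their transcripts are described in mouse livers at E18.5. The group held 9 genes, A2m, Pzp, Mug1, Mug2, Itih1, Itih2, Itih3, Itih4 and Ambp, and all 9 were among the 23022 genes listed in the authors' deposited table. The 4N group held 3 livers, from Hhex knockout embryos that had received tetraploid embryonic stem cells, marked by td-Tomato, as blastocysts. Hhex encodes a homeobox factor without which the liver bud does not develop. The WT group held 2 livers from normal embryos of the same day. RNA was poly(A)-selected and sequenced. Ploidy, cell origin, host genotype and embryo manipulation all differ between the groups and cannot be told apart. The labels name no mouse strain and do not say how much of a 4N liver came from host cells or whether the livers of a group shared a litter. The genes were matched by symbol, and the group was chosen by looking at the fold changes of this same comparison. The values of the 9 genes are therefore a description of these libraries and carry no test here.

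Macroglobulins are large plasma proteins that inhibit proteases of many classes. A protease cuts a bait region in the macroglobulin, which then closes around it and binds it through a reactive thioester, and the complex is taken up through the receptor LRP1, chiefly by hepatocytes. By their gene names, A2m stands for alpha-2-macroglobulin and Pzp for a close relative, pregnancy zone protein. These names do not tell which product is the main alpha-2-macroglobulin of mouse plasma. Mug1 and Mug2 encode murinoglobulins, smaller relatives that act as monomers in rodent plasma. The inter-alpha-trypsin inhibitors are built differently. Ambp encodes a precursor that is cut into the lipocalin alpha-1-microglobulin and bikunin, which carries Kunitz inhibitor domains. Heavy chains encoded by Itih1, Itih2 and Itih3 are joined to bikunin by a chondroitin sulfate chain in the secretory pathway and are later passed on to hyaluronan by the protein of Tnfaip6. Itih4 encodes a heavy chain relative that lacks the site for this link and is cut by plasma kallikrein.

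All 4 macroglobulin proteins carry the thioester sequence, and the coding bases around it are shown to make visible how far reads from each gene can be told apart. In the coding sequence of the longest protein-coding transcript of each gene in GENCODE M21 (GRCm38), the 60 bases below hold the codons for the thioester cysteine, glycine, glutamate and glutamine in capitals. The stretch starts at coding base 2890 in A2m, 2926 in Pzp, and 2896 in both Mug1 and Mug2, counted from 1 at the start codon.
A2m: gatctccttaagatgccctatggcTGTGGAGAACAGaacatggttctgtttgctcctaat
Pzp: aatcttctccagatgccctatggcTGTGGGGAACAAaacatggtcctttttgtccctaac
Mug1: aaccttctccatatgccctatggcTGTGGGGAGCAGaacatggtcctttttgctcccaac
Mug2: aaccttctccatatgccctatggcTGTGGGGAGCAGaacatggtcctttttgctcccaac
A2m differed from Pzp at 11 of these 60 bases and from each murinoglobulin at 12, Pzp differed from each murinoglobulin at 7, and Mug1 and Mug2 did not differ. Over the whole coding sequence, A2m and Pzp were identical at 66.4% of 4360 aligned bases and A2m and Mug1 at 70.0% of 4327. Mug1 and Mug2 were identical at 95.1% of 4350 aligned bases. No 50-base stretch of the A2m transcript occurred in the Pzp, Mug1 or Mug2 transcript. Of the 50-base stretches of Mug1, 20.9% occurred in Mug2, and 21.3% of those of Mug2 occurred in Mug1. Reads from the murinoglobulins can therefore be shared between both genes, depending on how the authors counted, and the split between Mug1 and Mug2 is uncertain. No pair among the 4 heavy chain genes shared a 50-base stretch, and their coding identity was 59.3% to 66.2%.

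The murinoglobulins lie next to A2m in a row on chromosome 6, and the bases upstream of both are shown because they are nearly copies of each other. Sequences are from RefSeq (GRCm38.p6), which held an upstream entry for 8 of the 9 genes, the exception being A2m. The printed bases of Mug1 and Mug2 stop where RefSeq's range for the gene begins, and the transcript start used for the upstream entry lies 45 bases further in for Mug1 and 69 for Mug2. They lie at chr6:121838291-121838495 on the plus strand for Mug1 and chr6:122006548-122006728 on the plus strand for Mug2. Capitals mark bases that differ between Mug1 and Mug2 or stand opposite a gap in their alignment. The first 35 printed bases of Mug1 lie before the Mug2 entry starts. They were not aligned and are in lower case for that reason only.
Mug1: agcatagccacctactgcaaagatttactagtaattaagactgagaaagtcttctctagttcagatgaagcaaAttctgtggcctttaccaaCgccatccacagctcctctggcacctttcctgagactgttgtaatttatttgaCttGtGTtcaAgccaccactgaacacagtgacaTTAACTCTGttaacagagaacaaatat
Mug2: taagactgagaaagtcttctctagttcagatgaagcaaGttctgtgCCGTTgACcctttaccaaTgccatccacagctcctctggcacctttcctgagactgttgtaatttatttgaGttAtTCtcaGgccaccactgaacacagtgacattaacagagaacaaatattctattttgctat
Over the 300-base entries of both genes, 256 bases could be aligned, of which 9 differed (96.5% identity), and 16 further bases stood opposite a gap. The HNF1 motif, bound by a liver transcription factor, was written GTTAAN and searched on both strands of the 250 bases before the entry's own start, which for Mug1, Mug2 and Itih3 reach into the gene's range. It matched at 2 places in Mug1 and at 1 in Mug2. The last run of capitals in Mug1, which stands opposite a gap in Mug2, overlaps both Mug1 matches as aligned. The bases ttaac repeat there, so the gap could equally be set after the first ttaac, where it would touch only 1 match. The motif matched in 21.6% of 32851 promoters of the same length. Pzp, which lies apart from the murinoglobulins on chromosome 6, had 2 matches, in capitals in its upstream sequence at chr6:128526721-128526970 on the minus strand.
Pzp: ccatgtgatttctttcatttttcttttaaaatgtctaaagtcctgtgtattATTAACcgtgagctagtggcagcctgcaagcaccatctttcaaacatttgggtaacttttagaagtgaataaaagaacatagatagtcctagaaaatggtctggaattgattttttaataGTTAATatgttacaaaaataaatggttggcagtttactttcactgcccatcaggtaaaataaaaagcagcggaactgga
Itih1 also had 2 HNF1 matches, and Itih2, Itih3, Itih4 and Ambp had 0. The FOXA motif TGTTTNC matched once in each of Mug1, Mug2, Itih3 and Ambp, and in 17.8% of all promoters. Its matches in Mug1, Mug2 and Itih3 lie in the bases within the gene's range, which are not printed. The STAT motif TTCNNNGAA matched in Itih4 only, among the 8 genes with an entry, and in 7.02% of all promoters. The C/EBP motif TTNNGNAAT matched in Itih1 only among these 8 genes, and in 10.2% of all. The HNF4 motif CAAAGT matched in Itih2 and Itih4, and in 12.6% of all. TATAAA matched in 0 of the 8 genes and in 12.4% of all promoters. No matches overlapped each other, and a match is a string of letters, not a shown binding site.

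The file held a comparison of both groups and no values of single libraries. For each gene it gave a mean normalized count over all 5 libraries, a log2 fold change with its standard error (SE), and an adjusted p. Group means below were computed from the mean and the fold change and have no error of their own, since the spread within a group is known only through the SE. The depth of each library is unknown, and the summed means over all genes came to 78112274 normalized counts. Which group is the numerator was not stated, and this was read from genes with very few reads. Of these, 38 genes with negative values had a lower group mean between 0.3 and 0.4, close to the 0.333 that 1 read spread over 3 libraries gives, and 0 genes with positive values did. Negative values therefore mean lower in the 4N group, the one with 3 libraries, and positive values mean higher in 4N. Hhex itself, at 0.55 (SE 0.33) in the authors' deposited table, did not pass, with 6753 normalized counts in 4N and 4607 in WT liver. It was thus present in both groups. The knockout is that of the host embryos, and the labels do not say how much of a 4N liver came from host cells. For Alb, the albumin gene and defining hepatocyte transcript, the authors' deposited table gave 0.01 (SE 0.22), with 6210266 in 4N and 6185296 in WT liver.

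By the authors' deposited table and its adjusted p under 0.05, 1 of the 9 genes (A2m) was higher in 4N liver, 4 (Mug1, Mug2, Itih1 and Itih3) were lower, and 4 did not pass. Over all 23022 genes, 7.94% were higher and 7.41% lower by this rule in the authors' deposited table. Among 1181 abundant genes, those whose mean reached 10000, which include all of the 9 genes except Mug1 and Mug2, 20.7% were higher and 17.1% lower. The median log2 fold change of the 9 genes was -0.40, beside -0.00 over all genes. With all values recentred on the median of 22 plasma protein genes, every log2 fold change moved up by 0.65. Of these 22 genes, 12 were called lower and 0 higher as deposited. Recentred values are thus relative to genes whose own median was -0.65. The calls among the 9 genes then became 3 higher and 2 lower. Over all genes the calls became 7774 higher and 803 lower, against 1828 higher and 1705 lower as deposited (90.6% against 51.7% of calls higher). All calls use the normal p-values of the authors' deposited table. When the same statistics were referred to a t distribution (3 degrees of freedom), 0 of all 23022 genes were called higher and 0 lower. Even Mug1, with a Wald score of -15.5, had an adjusted p of 0.37 by this t reference. It therefore cannot set single genes apart here. In the same comparison 12 of 12 red blood cell markers rose, with a median of 1.47 and summed means of 3350167 normalized counts in 4N and 995115 in WT liver. Of 8 hepatocyte markers, 3 fell and 5 did not pass as deposited, with summed means of 7779519 in 4N and 8451220 in WT liver. After recentring on plasma proteins the lower calls of Apoa1, Apob and Cps1 end, and Alb (0.66) and Fgb (0.94) are called higher. Counts for the other cell types are as deposited. Macrophage markers were higher in 2 and lower in 1 of 8 cases, stellate markers likewise in 2 and 1 of 8, endothelial markers lower in 1 of 8 and cholangiocyte markers lower in 1 of 6. Megakaryocyte and granulocyte markers had 0 calls among 5 and 7 genes. A change in RNA per cell and a change in the share of a cell type, red blood cells included, cannot be told apart in whole livers. The part of either marker change in the results below was not tested.

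**Figure D1:**
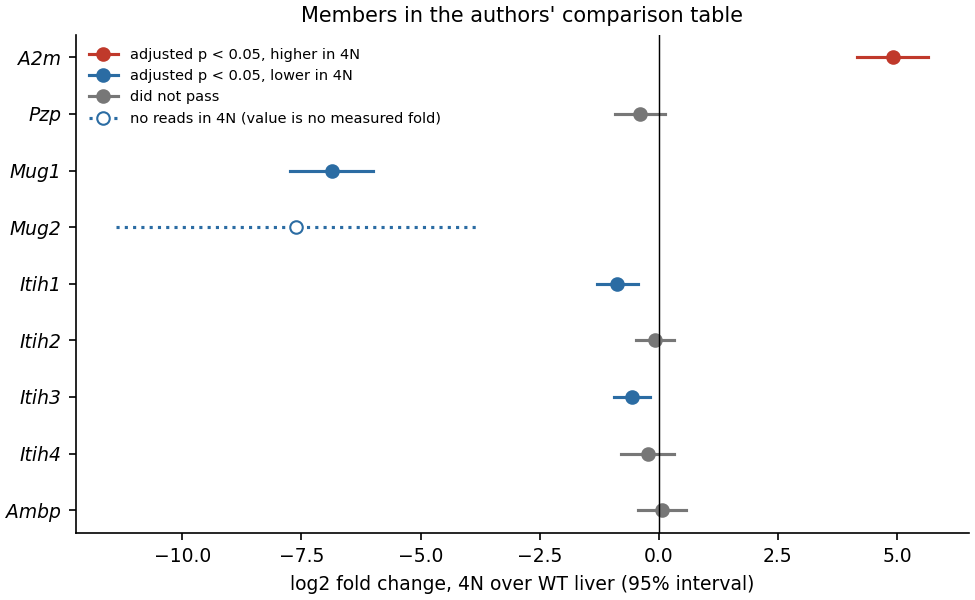
Log2 fold change of each gene, 4N over WT liver, from the authors' deposited table, with 95% intervals computed from its standard errors. A2m stands alone on the right at 4.91, Mug1 and Mug2 lie far to the left, and the inter-alpha-trypsin genes lie between -0.87 and 0.06, where Itih1 and Itih3 are marked as lower.

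A2m, named for alpha-2-macroglobulin, was far more abundant in 4N liver. Its mean was 307168 normalized counts in 4N and 10226 in WT liver, as implied by the authors' deposited table. The log2 fold change in the authors' deposited table was 4.91 (SE 0.38, 95% interval 4.16 to 5.66), or 30.0-fold with an interval of 17.9-fold to 50.4-fold. Among the 1181 abundant genes it ranked the third highest. Its SE was also large for its level: of the 44 genes with a mean within 2-fold of its own, 97.7% had a smaller SE, and their median SE was 0.23. That SE is the only sign in the data of how far the libraries of a group differed for A2m. Both scalings tried left its direction and its call as they were.

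Pzp, the most abundant of the 9 genes over all libraries, did not pass the test. It had 275899 normalized counts in 4N and 363691 in WT liver, with a log2 fold change of -0.40 (SE 0.27, 95% interval -0.93 to 0.13) in the authors' deposited table. This interval holds both lower and higher levels in 4N, and recentring on plasma proteins turns the value to 0.26, still not called.

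The murinoglobulin genes were lowest of all. Mug1 had 23.9 normalized counts in 4N and 2776 in WT liver, and a log2 fold change of -6.86 (SE 0.44, 95% interval -7.73 to -5.99) in the authors' deposited table. This is 116-fold lower in 4N, with an interval of 63.7-fold to 213-fold, and the direction and the call were the same under both scalings. Among 8656 genes whose mean reached 1000, Mug1 ranked 9 from the lowest. Of 4707 genes with a mean within 2-fold of that of Mug1, 98.0% had a smaller SE. Mug2 had no reads in the 4N libraries, judged from its place among 247 genes whose fitted 4N mean sits at the floor of the fit, and 34.6 normalized counts in WT liver. The authors' deposited table lists it as lower, and no fold is given against an empty group. Because the transcripts share stretches, reads assigned to Mug2 in WT liver cannot all be told apart from reads of Mug1.

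Set against length, the macroglobulin transcripts of 4N liver were a mixture and those of WT liver were nearly all Pzp. A2m had 66703 normalized counts per kb of transcript in 4N and 2221 in WT liver, and Pzp had 58940 per kb in 4N and 77695 in WT liver. A2m thus made up 53.1% of the per-kb sum of the 4 genes in 4N and 2.76% in WT liver. Pzp made up 46.9% in 4N and 96.5% in WT liver, and Mug1 0.00408% in 4N and 0.74% in WT liver. The ratio of A2m to Pzp per kb was 1.13 in 4N and 0.0286 in WT liver. The per-kb sum of the 4 genes was 125648 in 4N and 80520 in WT liver, a ratio of 1.56. These sums and ratios join several genes of the same libraries and carry no error, since the table gives none for combinations of genes.

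**Figure D2:**
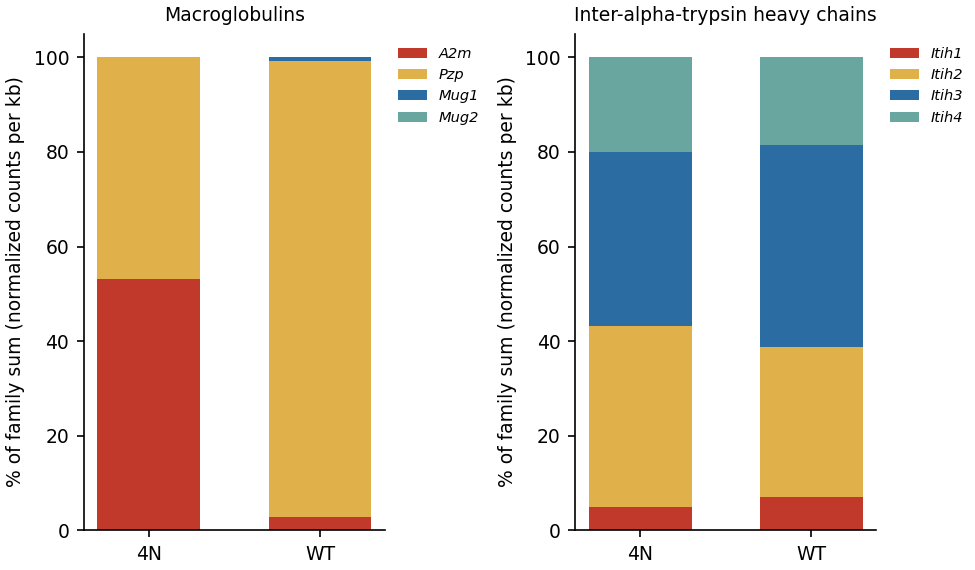
Share of each gene in the summed normalized counts per kb of its family, with 4N on the left and WT on the right in each panel. A2m fills 53.1% of the macroglobulin bar in 4N and 2.76% in WT, and the order of the heavy chains differs between the bars for Itih2 and Itih3.

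The heavy chain genes had smaller fold changes than A2m, Mug1 and Mug2. Itih1 had 22228 normalized counts in 4N and 40658 in WT liver, a log2 fold change of -0.87 (SE 0.22, 95% interval -1.30 to -0.44) in the authors' deposited table. Itih3 had 165292 in 4N and 242746 in WT liver, a log2 fold change of -0.55 (SE 0.19, 95% interval -0.93 to -0.18) in the authors' deposited table. Both were called lower, by 1.83-fold for Itih1 and 1.47-fold for Itih3. Both calls end after recentring on plasma proteins, where Itih1 stands at -0.22 and Itih3 turns to 0.10, and both end when tested against a 1.5-fold change. Itih2 had 178543 in 4N and 188282 in WT liver, and its value of -0.08 (SE 0.20, 95% interval -0.48 to 0.32) in the authors' deposited table did not pass. Itih4, the heavy chain relative without the bikunin link, had 106115 in 4N and 124801 in WT liver and did not pass at -0.23 (SE 0.28, 95% interval -0.79 to 0.32) in the authors' deposited table. The intervals of all 4 heavy chain genes overlap each other, those of Itih1 and Itih2 only between -0.48 and -0.44. After recentring on plasma proteins Itih2 turns to 0.58 and is called higher, and Itih4 turns to 0.42 without a call.

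Ambp, the source of bikunin, did not pass as deposited and was called higher, at 0.72, after recentring on plasma proteins. It had 133281 normalized counts in 4N and 127595 in WT liver, with a log2 fold change of 0.06 (SE 0.25, 95% interval -0.44 to 0.56) in the authors' deposited table. Per kb it had the highest level of the 9 genes in both groups, with 105111 in 4N and 100627 in WT liver. The summed per-kb level of the heavy chains Itih1, Itih2 and Itih3 was 1.14 times that of Ambp in 4N and 1.54 times in WT liver, with no error available. Itih3 made up 36.8% of the per-kb sum of the 4 heavy chain genes in 4N and 42.6% in WT liver, and Itih2 38.4% in 4N and 31.9% in WT liver. Itih1 was the least abundant heavy chain in both groups, with 7224 per kb in 4N and 13213 in WT liver.

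**Figure D3:**
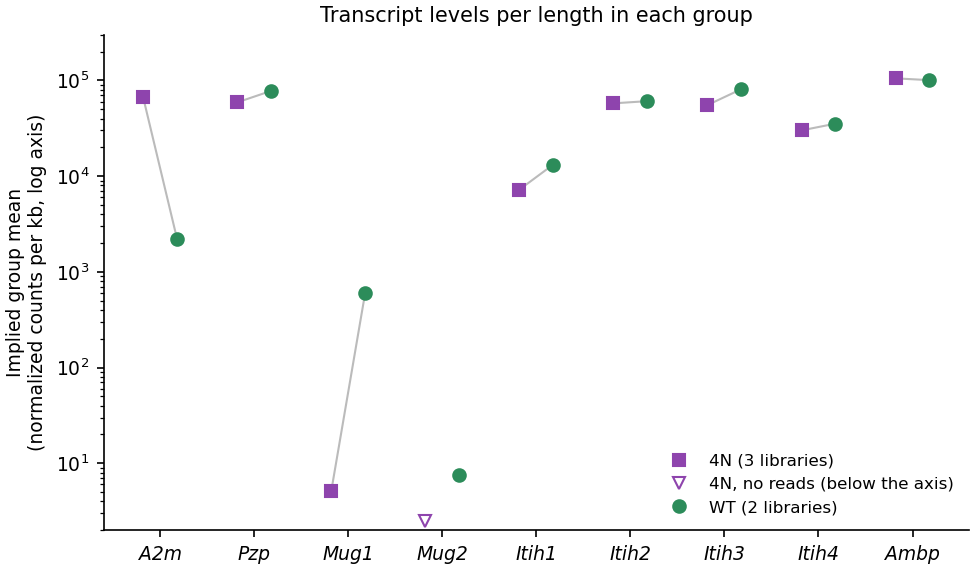
Group means implied by the authors' deposited table, in normalized counts per kb of transcript on a log axis, with 4N squares left of WT circles. A2m falls among the abundant genes in 4N (66703) and well below them in WT (2221), and Mug2 has no reads in 4N and is drawn as an open triangle at the lower edge.

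In 4N liver the order of levels per kb ran from Ambp through A2m, Pzp, Itih2, Itih3, Itih4, Itih1 and Mug1 to Mug2. In WT liver it ran from Ambp through Itih3, Pzp, Itih2, Itih4, Itih1, A2m and Mug1 to Mug2. Whether neighbours in either order differ beyond the spread of livers could not be examined, because the spread within a group is not given for single genes' levels. A2m held the place after Ambp in 4N and the place after Itih1 in WT liver.

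**Figure D4:**
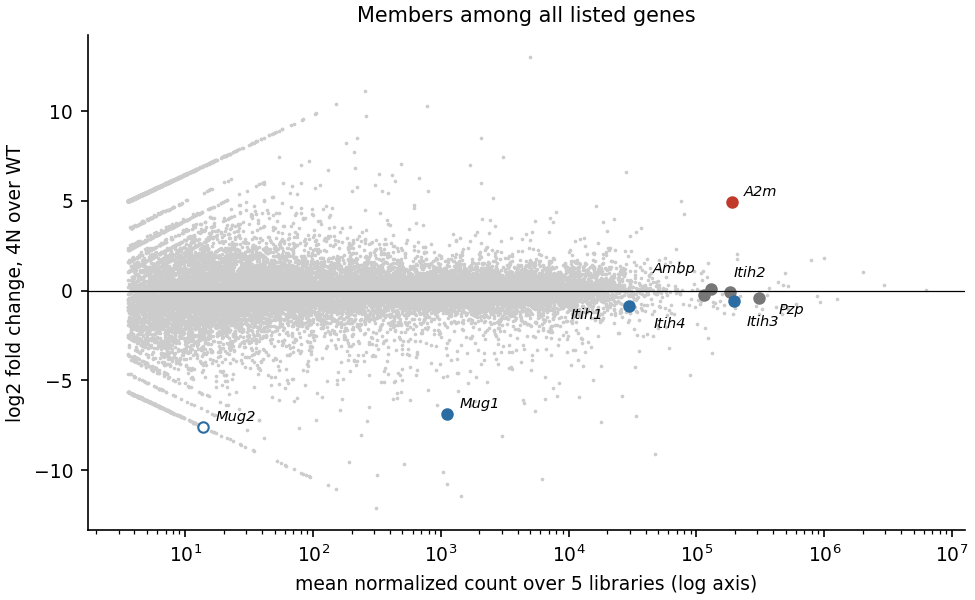
Mean normalized count over 5 libraries (log axis) against log2 fold change, 4N over WT, for all genes of the authors' deposited table in grey and the 9 genes in colour. A2m stands at 4.91, the third highest among genes whose mean reached 10000, Mug1 lies at -6.86, and Mug2, with an open symbol, on the line of genes with no reads in 4N.

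The genes next to each member were looked up in RefSeq (GRCm38.p6), which was used only for their order. A2m, Mug1 and Mug2 form 1 row on chromosome 6 with related pseudogenes between them. Within this row A2m was higher in 4N and both murinoglobulin genes lower. Of the pseudogenes, Mug-ps1 was listed with a mean of 9.18 normalized counts in the authors' deposited table, at -0.79 (SE 1.95) and without a call, and the flanking genes Iqsec3 and Klrg1 were not listed. Around Pzp, the authors' deposited table gave 0.11 (SE 0.26) for the chaperone gene Fkbp4 and 0.54 (SE 0.95) for the macroglobulin relative A2ml1, neither of them called. After recentring on plasma proteins Fkbp4 is called higher at 0.77, and A2ml1 is still not called. Itih4, Itih3 and Itih1 form a row on chromosome 14. Their flanking kinase gene Nek4 was lower in the authors' deposited table (-0.75, SE 0.25), a call that ends at -0.10 after recentring on plasma proteins. For Mustn1 on the other side the authors' deposited table gave -0.25 (SE 0.54), without a call. Itih2 on chromosome 2 lies beside its relative Itih5, which rose (2.77, SE 0.25), and beside Kin, at 0.63 (SE 0.25) without a call, in the authors' deposited table. Kin is called higher, at 1.28, after recentring on plasma proteins. Both neighbours of Ambp on chromosome 4 were higher in the authors' deposited table, the zinc finger gene Zfp618 at 0.72 (SE 0.23) and the kinesin gene Kif12 at 1.12 (SE 0.34).

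**Figure D5:**
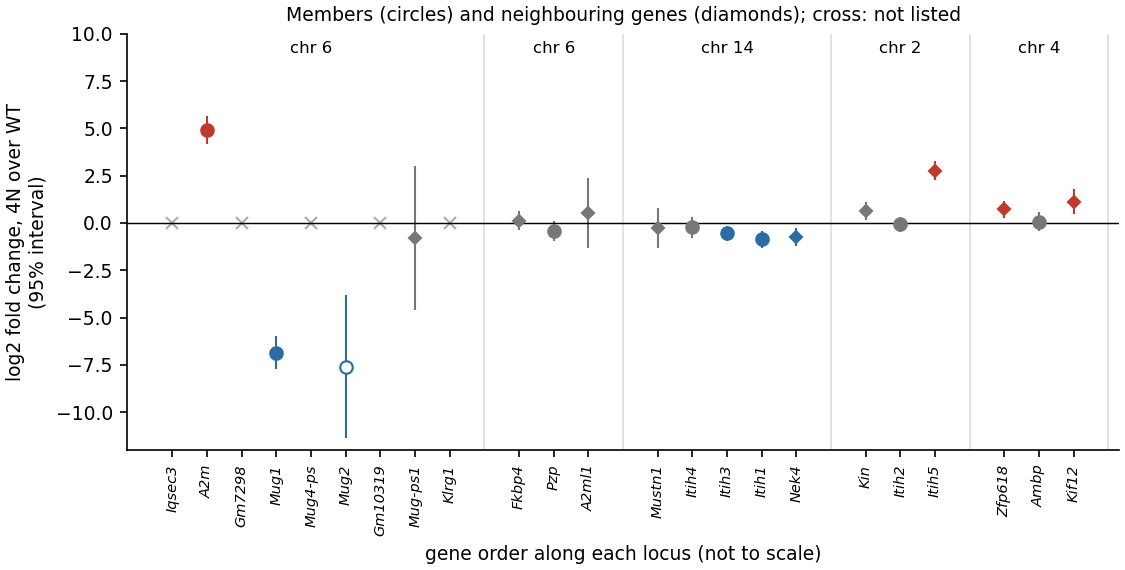
Log2 fold change, 4N over WT, with 95% intervals, for the 9 genes (circles) and their neighbours (diamonds) in gene order along each locus, from the authors' deposited table. The first row on chromosome 6 holds A2m at 4.91 beside Mug1 at -6.86, and Itih5 at 2.77 stands beside Itih2 at -0.08 on chromosome 2.

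Other genes of the same protein families and pathways were described from 9 lists with 107 different genes measured. Of these, 8 rose and 23 fell by the authors' Wald test, beside 7.94% higher and 7.41% lower over all genes. Among genes whose mean reached 10000, the shares were 20.7% higher and 17.1% lower. The list counts below stand beside these shares and were not tested against them. Relatives of the macroglobulins with the same fold, most of them complement proteins, fell in 4 of 6 cases and rose in 0, with a median log2 fold change of -1.35 beside -0.00 over all genes (2 lower and 0 higher after recentring on plasma proteins). In the authors' deposited table C4b stood at -2.03 (SE 0.25, adjusted p = 5.8e-14) and C4a at -1.05 (SE 0.32), both lower, and reads of these close copies can be shared. Hc, the gene of complement component C5, was lower (-1.64, SE 0.35, by the authors' deposited table). Of 4 genes for LRP1, its chaperone and related receptors, 2 rose and 1 fell, with a median of 0.12 (2 higher and 0 lower after recentring). The LRP1 chaperone gene Lrpap1 stood at 0.56 (SE 0.20), the endocytic receptor gene Lrp2 at 2.15 (SE 0.73) and the lipoprotein receptor gene Vldlr at -0.88 (SE 0.30), all called in the authors' deposited table. Levels of Lrp2 were low, with 133 normalized counts in 4N and 29.9 in WT liver. Lrp1 itself, named here after its value was seen, was not called, and the authors' deposited table gave -0.33 (SE 0.25).

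Genes that bind, make or remove hyaluronan, the acceptor of the heavy chains, rose in 3 of 16 cases and fell in 0, with a median of 0.17 (7 higher and 0 lower after recentring). They were the heavy chain relative Itih5, the hyaluronidase gene Hyal1 (1.13, SE 0.37) and the hyaluronidase gene Cemip2 (0.62, SE 0.20), in the authors' deposited table. Itih5 had 4451 normalized counts in 4N and 653 in WT liver, and its adjusted p was 9.4e-26 in the authors' deposited table. Tnfaip6, the heavy chain transferase gene, was named after its value was seen and did not pass, with 7.28 normalized counts in 4N and no reads in WT liver. Of 16 genes that build the chondroitin sulfate link, 0 rose and 0 fell by the authors' Wald test (1 at an unadjusted p under 0.05), with a median of 0.04 (8 higher and 0 lower after recentring). The most abundant were the xylose kinase gene Fam20b (0.20, SE 0.23) and the chondroitin synthase gene Chsy1 (0.07, SE 0.21) in the authors' deposited table. Among 8 Kunitz inhibitor genes, relatives of bikunin, 2 fell and 0 rose, with a median of -0.37 (1 higher and 1 lower after recentring). These were App, the amyloid precursor gene (-1.03, SE 0.27), and Wfikkn1 (-2.70, SE 0.60), in the authors' deposited table. Among 8 lipocalin genes, relatives of alpha-1-microglobulin, 3 fell and 0 rose, with a median of -0.67 (1 higher and 2 lower after recentring). The authors' deposited table gave -3.03 (SE 0.37) for the acute phase gene Orm1, -1.26 (SE 0.25) for the retinol carrier gene Rbp4 and -1.17 (SE 0.25) for the complement gene C8g.

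Proteases that these inhibitors can meet were mixed, with 3 of 15 higher and 4 lower and a median of -0.01 (7 higher and 0 lower after recentring). The gelatinase genes Mmp9 (1.44, SE 0.23) and Mmp2 (1.43, SE 0.38) and the urokinase gene Plau (1.08, SE 0.31) rose in the authors' deposited table. Plasma kallikrein (Klkb1, -0.74, SE 0.22), which cuts the Itih4 product, fell, as did the protease gene Tmprss6 (-0.84, SE 0.26) and coagulation factor X (F10, -0.55, SE 0.19), in the authors' deposited table. F10 turns to 0.10 after recentring on plasma proteins, and the lower calls of C4a, Vldlr, App, C8g, Klkb1 and Tmprss6 end there too. Other plasma protease inhibitors fell in 9 of 18 cases and rose in 0, with a median of -0.83 (4 lower and 3 higher after recentring). Timp2, a metalloprotease inhibitor gene named after its value was seen, was not called at 0.68 (SE 0.27) in the authors' deposited table. Among the alternatives run, it was called higher only where genes with a mean under 50 were left out or values were recentred on plasma proteins. The 3 with the smallest adjusted p were the histidine-rich glycoprotein gene Hrg (-3.35, SE 0.29), the serpin gene Serpina3n (-2.52, SE 0.28) and Fetub (-2.36, SE 0.27), whose product inhibits astacin proteases, in the authors' deposited table. A list of 16 genes covered the interleukin 6 and STAT3 pathway, which drives macroglobulin genes in the acute phase of the rat. It also held genes not specific to that pathway, such as Cebpa, Nr3c1 and Il1r1. Of the 16, 0 were higher and 0 lower by the authors' Wald test (1 at an unadjusted p under 0.05). Their median was 0.12 (8 higher and 0 lower after recentring). The gene below that unadjusted p was Stat3 itself, named after its value was seen, for which the authors' deposited table gave -0.58 (SE 0.22, adjusted p = 0.053). By adjusted p, Stat3 was called lower among genes with a mean of 50 or more and after recentring on the abundant genes, and it turns to 0.08, not called, after recentring on plasma proteins. The most abundant were the transcription factor gene Cebpa (0.13, SE 0.29) and the cytokine receptor gene Lifr (0.25, SE 0.24) in the authors' deposited table.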

How the data were processed

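RNA of 5 livers was sequenced from poly(A)-selected libraries primed with random hexamers, per the labels' protocols. GRCm39 is the genome build named, per the submitters' processing notes. No aligner or counting tool was named in the labels or headers. The authors deposited 1 comparison table in the layout of DESeq2, per the file headers. Its mean signal is a normalized count averaged over all libraries, per the file headers. Fold changes and SEs were deposited on a log2 scale. The deposited Wald score was their quotient for all 23022 genes. The deposited p-values matched 2-sided normal p-values of that score, and the adjusted p-values followed from Benjamini-Hochberg over all genes, both checked within 1%. Nothing says that the samples came from separate litters, so the SEs, and the p-values computed from them, rest on these samples only.

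Group means were solved from the mean, the fold change and the library numbers of 3 and 2. A group with a fitted mean under 0.2 was taken to have no reads. Intervals are normal 95% intervals. The 9 genes and all lists were chosen with earlier results of these data known. Named genes were the 9 members, their neighbours, Alb, Hhex and Hbb-bs (1.71, SE 0.20, in the authors' deposited table), and in each list the called genes with the smallest adjusted p (up to 3 per direction) or else the 2 most abundant. Transcripts came from GENCODE M21 and upstream sequences from RefSeq. The adjustment and the solving of group means were tested on simulated data, which checks their arithmetic only. Alternatives were a stricter adjusted p of 0.01, a mean of 50 or more, testing against 1.5-fold, a t reference with 3 degrees of freedom, and recentring on the abundant genes or on 22 plasma protein genes. Python 3.11.15, numpy 2.4.6, pandas 2.3.3, scipy 1.17.1, Biopython 1.88 and matplotlib 3.10.9 were used.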

Additional observations from a re-analysis of the deposited data

How the results depend on the processing

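The calls of A2m, Mug1 and Mug2 ended under 1 of the 6 alternatives, a t reference with 3 degrees of freedom. Under it 0 of the 9 genes were called higher and 0 lower (1 and 3 at an unadjusted p under 0.05). The same held for 0 and 0 of the 107 related genes (4 and 18). It called 0 of all 23022 genes and so cannot set single genes apart. A test against a 1.5-fold change left 1 gene higher and 2 lower of the 9, ending the calls of Itih1 and Itih3, and 2 higher and 8 lower of the related genes. An adjusted p under 0.01 ended the call of Itih3 and left 4 related genes higher and 17 lower. Recentring on 22 plasma protein genes gave 3 higher and 2 lower of the 9 genes and 37 higher and 9 lower of the related ones. It reversed Pzp to 0.26, Itih2 to 0.58, Itih3 to 0.10 and Itih4 to 0.42, of which Itih2, with Ambp at 0.72, was then called higher. These shifts follow from the recentring itself, which moves every value up by 0.65, and 12 of the 22 plasma protein genes were themselves called lower as deposited. A minimum mean of 50 left Mug2 out. No paired analysis was possible because the labels give the groups no shared replicate numbers and no values of single libraries were analysed here. For the same reason no library could be left out, and the spread within groups limits every value here.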
